A study of Mus musculus with 48 samples.

Results

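Oligodendrocyte lineage and myelin genes were followed across 4 tissues of Tia1 knockout (KO) and wild-type (WT) mice. The list holds 33 genes, taken by their symbols. It was chosen with earlier results of these data known, so counts of its members beside shares of all probe sets are descriptions. Of the 33 genes, 30 were represented on the microarray by 50 probe sets. In all, 17097 genes have a probe set with a single symbol. Each gene is given by its brightest probe set, the one with the highest mean over all 48 arrays. Myrf, Cspg4 and Bcas1 were not analysed here. All levels are log2 values after Robust Multichip Average normalization (RMA), all differences are KO minus WT on this log2 scale unless stated otherwise, and a gene is called changed where limma's moderated test gave a Benjamini-Hochberg adjusted p under 0.05 over all 45037 probe sets tested.

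Oligodendrocytes wrap axons of the central nervous system in myelin, a stack of membrane that is rich in galactolipids and in a small set of abundant proteins. They arise from dividing progenitors under the control of transcription factors such as Olig2 and Sox10, pass through a short newly formed stage, and then switch on the genes of the sheath and of its lipid synthesis. Tia1 encodes TIA-1, an RNA-binding protein of stress granules.

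KO mice at 3 and 6 months were compared with WT mice at 3 and 6 months, and spinal cord, midbrain, cerebellum and liver were taken from 3 mice of each genotype and age, which gave 16 groups. The KO allele is constitutive, lies on a background given as C57Bl/6 by the labels and C57BL6/J by the methods, lacks part of the gene through recombination at an exon and still yields a shortened transcript, whereas the WT mice were C57BL6/J from a commercial breeder. The design text calls the WT mice littermates, but the methods describe separate homozygous matings, so genotype and breeding colony cannot be told apart, nor can age and cohort. Arrays of a group correlated at 0.985 to 0.99755, and array medians lay between 3.95 and 4.32. The Tia1 probe set that the study places at the recombined exon was lower in KO mice in all 8 comparisons, with 5.14 to 6.61 in KO against 7.49 to 8.41 in WT nervous tissues. The labels fitted the tissues: a list of 12 hepatocyte genes averaged 2.75 to 4.02 in nervous tissues and 11.15 to 11.35 in liver, and 20 neuronal genes averaged 9.35 to 10.04 in nervous tissues and 3.48 to 3.77 in liver. Because these are whole tissues, fewer cells of a type and less RNA per cell cannot be told apart.

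In WT mice the members were highest in spinal cord, lower in midbrain and lowest in cerebellum. Of the 30 members, 23 were higher in spinal cord than in midbrain, with a median difference of 0.67, where 14.6% of all probe sets were higher. Between spinal cord and cerebellum 29 members were higher (26.5% of all probe sets), with a median difference of 1.88, and between midbrain and cerebellum 28 were higher (24.6%), with a median of 1.13. No member was called in the opposite direction in these 3 comparisons. Against liver, 27 members were higher in the mean of the nervous tissues (35.4% of all probe sets) and 2 were lower (47.4%).

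Between spinal cord and cerebellum 5 members differed most. The gap junction protein Gjb1 (connexin 32) was 2.78 higher in spinal cord than in cerebellum, the sulfatide-forming sulfotransferase Gal3st1 2.67, the choline phosphodiesterase Enpp6 2.42, the matrix linker of the nodes Hapln2 2.37, and the lineage factor Sox10 2.36. The same 4 genes apart from Sox10, together with the fatty acid hydroxylase Fa2h, led the difference between spinal cord and midbrain, at 1.63 for Enpp6, 1.55 for Gjb1, 1.29 for Gal3st1, 1.27 for Fa2h and 1.21 for Hapln2. At the other end, the progenitor receptor Pdgfra differed by 0.14 between spinal cord and cerebellum and lay at 2.82 to 3.43 in all WT arrays, liver included, below the median of any array. Galc, the lysosomal enzyme that breaks down galactosylceramide, differed by only 0.04 between midbrain and cerebellum (adjusted p = 0.695).

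The 11 sheath genes had a median difference of 1.83 between spinal cord and cerebellum, near the 1.88 of all members, and 10 of them were above liver. The smallest of these differences between spinal cord and cerebellum, 0.73, was that of myelin basic protein, Mbp. Mbp averaged 12.72 ± 0.14 in spinal cord, 12.38 ± 0.08 in midbrain, 11.98 ± 0.07 in cerebellum and 2.92 ± 0.47 in liver (SD, n = 6 WT mice). Its mean over the nervous tissues exceeded liver by 9.44, followed by the raft proteolipid Mal at 7.65, the small myelin protein Mobp at 7.59, the galactosylceramide synthase Ugt8a at 7.49 and the receptor Gpr37 at 6.31. The 2 members lower in the mean of the nervous tissues than in liver were Gjb1, by 4.55, and the dihydropteridine reductase Qdpr, by 0.15. Hepatocytes also express both. Qdpr lay below its liver mean of 11.26 only in cerebellum (10.50), and above it in spinal cord (11.49) and midbrain (11.33). Aspa, the enzyme that splits N-acetylaspartate into acetate and aspartate, was only 0.62 higher in nervous tissues, with 7.58 to 8.25 in the 6 WT livers.

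**Figure D1:**
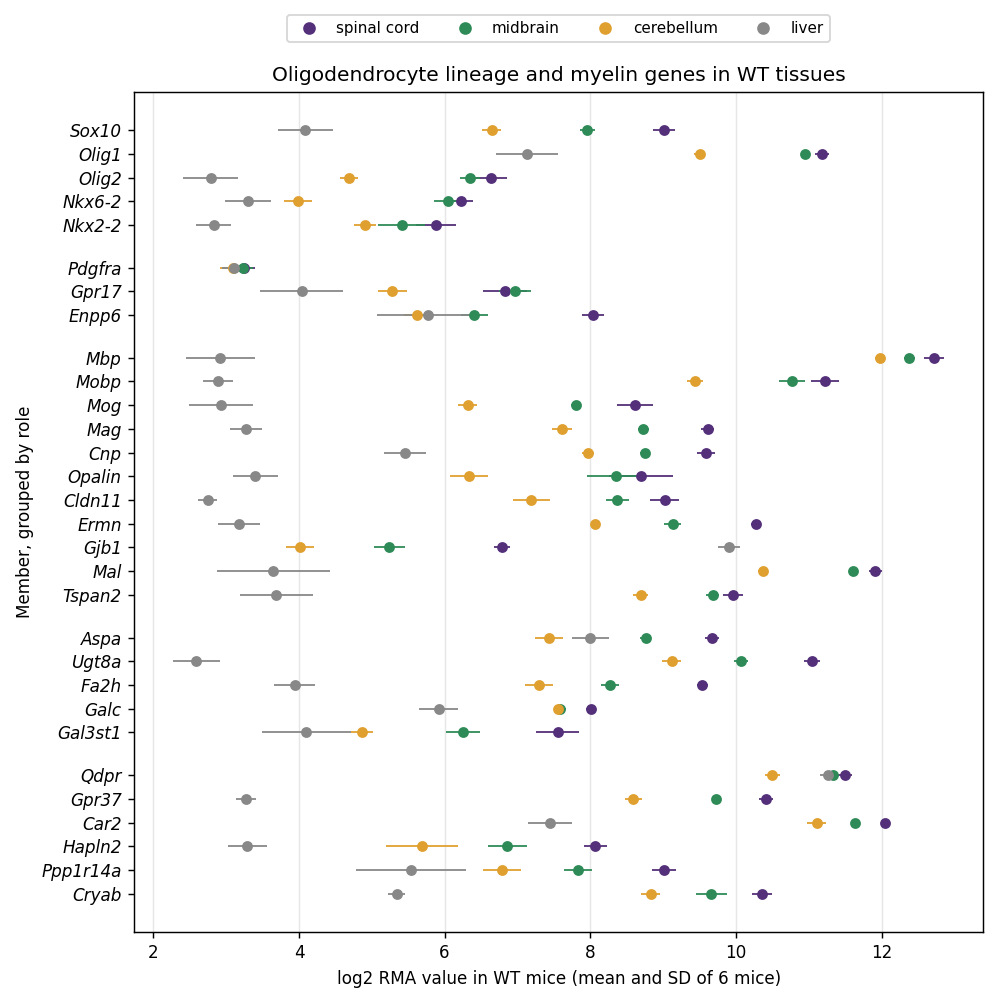
Level of each of the 30 members in WT mice, as log2 value after RMA, by tissue, with members grouped by role; points are means and bars SDs over 6 mice. Values fall in the order spinal cord, midbrain and cerebellum for most members, and Gjb1, Qdpr and Aspa stand out by their liver level.

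Between KO and WT mice, the calls among the members in nervous tissues fell on 3 genes. In spinal cord at 3 months 0 of 30 members were higher and 1 was lower, against 0.218% and 0.0933% of all probe sets. In spinal cord at 6 months 0 were higher and 1 was lower, against 0.109% and 0.0533%. In midbrain at 3 months 0 were higher and 1 was lower, against 0.109% and 0.133%.

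In midbrain at 6 months no member was called by limma in either direction, against 0.0822% higher and 0.0600% lower of all probe sets. There, 9 members had an unadjusted p under 0.05, all of them lower, where 4.61% of all probe sets had one in either direction. In other fits between 0 and 5 members were called. The 5 calls, all lower, came without liver in the fit, where 0.133% of all probe sets were lower. In cerebellum at 3 months 1 member was higher and 0 were lower, against 0.366% and 0.182% of all probe sets, and at 6 months 0 were higher and 2 were lower, against 0.0799% and 0.102%. The 6 calls concerned Opalin in 4 comparisons, Aspa in 1 and Hapln2 in 1.

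Most members did not pass the threshold. The median difference of the 30 members was 0.04 at 3 months and -0.16 at 6 months in spinal cord, -0.07 and -0.09 in midbrain, and 0.06 and -0.09 in cerebellum, while the median of all probe sets lay between -0.01 and 0.02. Members with all 3 KO mice below all 3 WT mice numbered 12 in spinal cord at 6 months (5.42% of all probe sets), 13 in midbrain (6.99%) and 10 in cerebellum (6.89%), and members with all KO mice above numbered 2 (6.11%), 1 (7.62%) and 1 (7.18%). At 3 months 8 members were below in spinal cord (9.22%), 8 in midbrain (13.0%) and 3 in cerebellum (5.66%), and 8 (7.92%), 5 (9.35%) and 6 (8.70%) were above in the same tissues. The same mice gave the 3 tissues, so these counts are not independent of each other.

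**Figure D2:**
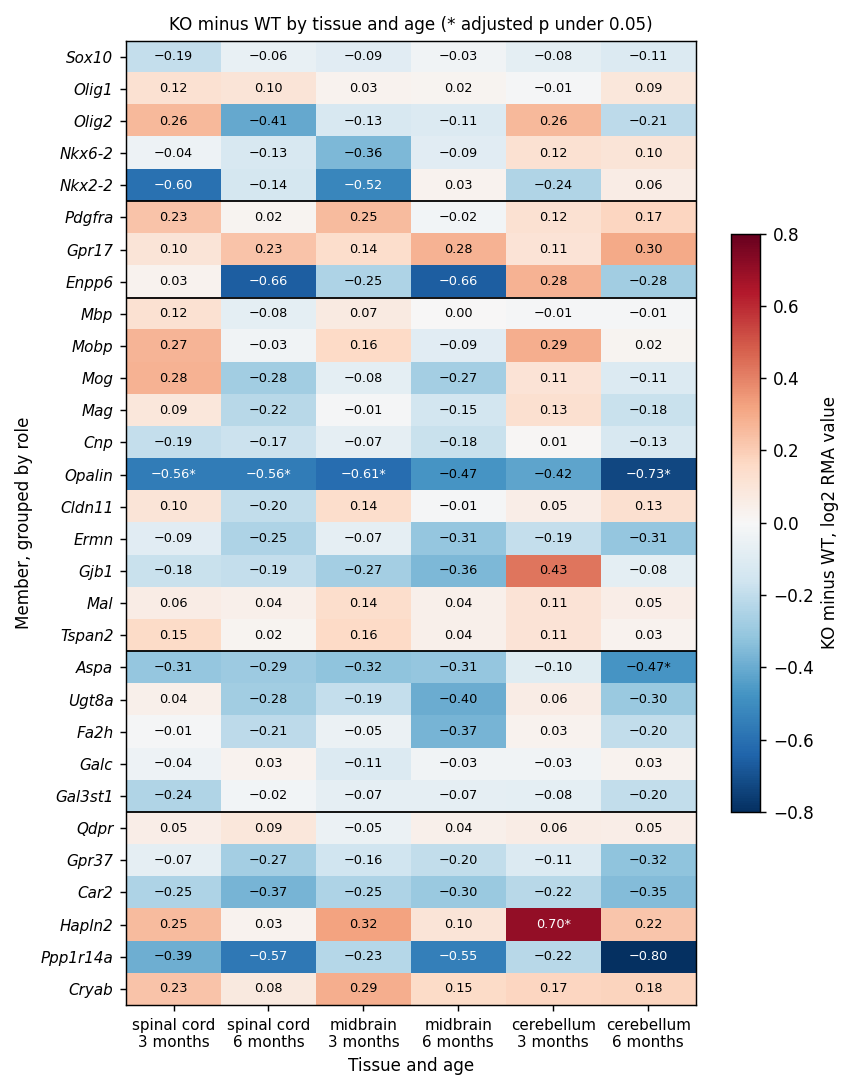
KO minus WT difference on the log2 scale for each member (rows, grouped by role) in spinal cord, midbrain and cerebellum at 3 and 6 months; marks show the calls at adjusted p under 0.05. Opalin is negative in 6 of 6 columns, and Hapln2 in cerebellum at 3 months is the only positive call.

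Lineage transcription factors were not called in any nervous tissue. Nkx2-2, a homeodomain factor of differentiating oligodendrocytes, read 5.37, 5.51 and 5.54 in KO spinal cord at 3 months, against 5.88, 6.11 and 6.22 in WT. All KO mice lay below all WT mice there, with a difference of -0.60 ± 0.15 (SE, limma adjusted p = 0.0750), and likewise in midbrain at 3 months with -0.52 (adjusted p = 0.196) and in cerebellum at 3 months with -0.24 (adjusted p = 0.795). At 6 months Nkx2-2 overlapped in every nervous tissue, with differences of -0.14, 0.03 and 0.06 in spinal cord, midbrain and cerebellum.

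Sox10, which drives the myelin program, differed by -0.19 to -0.03 and overlapped in 5 of 6 comparisons. Its KO values in spinal cord at 3 months were 8.84, 8.94 and 9.00, against 9.09, 9.12 and 9.14 in WT. Olig1 differed by -0.01 to 0.12, and Nkx6-2, a late oligodendrocyte factor, by -0.36 to 0.12. Olig2 differed by 0.26 in spinal cord at 3 months and by -0.41 at 6 months, without overlap in either (limma adjusted p = 1.00 in both). In a fixed list of other regulators of the lineage, 0 of 21 measured genes were called in any nervous comparison, and the largest difference was that of Hes5, a Notch target, at -0.66 in midbrain at 6 months (adjusted p = 0.778).

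None of the 3 genes of progenitors and newly forming oligodendrocytes was called in a nervous tissue. Enpp6, which marks newly forming cells and stays on in myelin, read 7.30, 7.51 and 7.55 in KO spinal cord at 6 months, against 7.99, 8.17 and 8.19 in WT (-0.66 ± 0.15 SE, adjusted p = 0.0636). In midbrain at 6 months it read 5.79, 5.88 and 5.98 in KO against 6.40, 6.55 and 6.67 in WT (-0.66, adjusted p = 0.0766). The groups did not overlap in either tissue. Neither difference passed the threshold in the fit over all tissues, but the call was made in spinal cord in 5 other fits (adjusted p = 0.000159 without liver to 0.0448 without dim probe sets) and in midbrain in 3 (adjusted p = 0.000176 without liver to 0.0474 with a trended prior).

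At 3 months Enpp6 showed no common direction: it differed by 0.03 in spinal cord, by -0.25 in midbrain and by 0.28 in cerebellum, where all KO mice lay above all WT mice. Gpr17, a receptor of cells about to mature, differed by 0.10 to 0.30, and its 3 KO mice lay above all WT mice in each nervous tissue at 6 months, with 6.66, 6.70 and 7.04 in KO spinal cord against 6.50, 6.59 and 6.62 in WT (0.23, adjusted p = 1.00). Pdgfra differed by -0.02 to 0.25 near background. Of 12 measured genes in a separate progenitor list, which includes Vcan and Ptprz1, 0 were called in any nervous comparison, and their mean level ranged over 6.23 to 6.32 in KO spinal cord at 6 months against 6.30 to 6.35 in WT.

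Opalin, a transmembrane protein found in central but not peripheral myelin, gave the clearest difference of the sheath genes. In spinal cord at 3 months it read 8.48, 8.54 and 8.55 in KO mice, against 8.99, 9.13 and 9.13 in WT mice, a fall of 1.47-fold (-0.56 ± 0.12 SE, limma adjusted p = 0.0212). At 6 months it read 7.47, 7.83 and 7.90 in KO, against 8.15, 8.30 and 8.43 in WT (-0.56, adjusted p = 0.0325). Every KO mouse was below every WT mouse at both ages.

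In midbrain at 3 months Opalin read 8.004, 8.04 and 8.21 in KO, against 8.56, 8.75 and 8.77 in WT (-0.61, adjusted p = 0.0107). In midbrain at 6 months it read 7.34, 7.63 and 7.64 in KO, against 7.84, 8.02 and 8.17 in WT (-0.47, adjusted p = 0.156), and in cerebellum at 3 months 6.00, 6.12 and 6.28 in KO, against 6.44, 6.58 and 6.64 in WT (-0.42, adjusted p = 0.126). These 2 differences did not pass the threshold although the groups did not overlap. In cerebellum at 6 months Opalin read 5.31, 5.37 and 5.48 in KO, against 5.97, 6.13 and 6.25 in WT, 1.65-fold lower (-0.73 ± 0.12 SE, adjusted p = 0.000826).

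The groups were thus apart in 6 of 6 nervous comparisons. The cerebellar call at 6 months held without any 1 of its 6 mice. The spinal cord call at 3 months was lost in 5 of 6 fits that left out a mouse (adjusted p up to 0.157; kept only without WT mouse 2), the spinal cord call at 6 months in 4 of 6 (up to 0.381; lost without KO mice 122972 and 122973 and WT mice 1 and 2) and the midbrain call at 3 months in 4 of 6 (up to 0.130; lost without KO mice 122970 and 122972 and WT mice 1 and 3). A different probe set for Opalin, at 2.28 to 3.42 on all arrays and thus near background, differed by -0.28 to 0.14. With both Opalin probe sets averaged, none of the 4 calls was made (adjusted p = 0.139 to 0.844), and with each tissue fitted alone the calls in spinal cord were not made (adjusted p = 0.0541 at 3 months and 0.0943 at 6 months).

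The bases before the start of Opalin are shown because it is the member with calls in all 3 nervous tissues. They come from RefSeq on GRCm38.p6, chr19:41077114-41077363 on the minus strand, and run 5′ to 3′ up to the base before the start, with a match to a SOX motif (ACAAAG, either strand) in capitals.
Opalin: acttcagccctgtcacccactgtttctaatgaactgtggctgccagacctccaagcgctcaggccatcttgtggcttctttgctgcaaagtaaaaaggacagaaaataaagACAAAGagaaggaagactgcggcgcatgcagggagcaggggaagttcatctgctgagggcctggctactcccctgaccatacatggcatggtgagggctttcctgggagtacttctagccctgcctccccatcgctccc

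**Figure D3:**
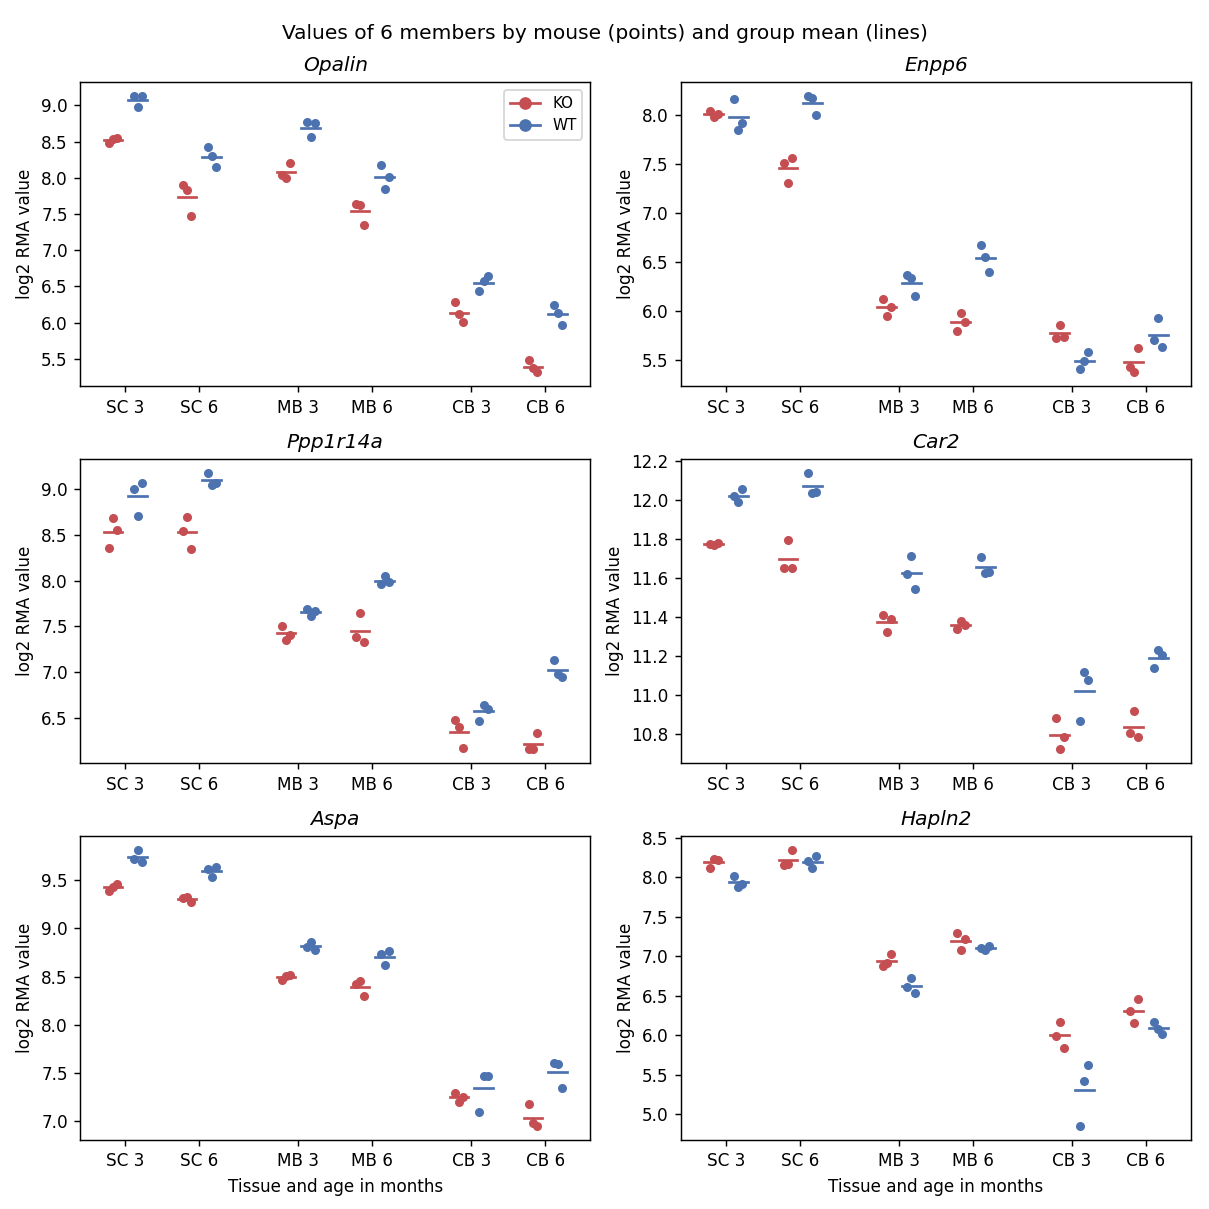
Log2 value of Opalin, Enpp6, Ppp1r14a, Car2, Aspa and Hapln2 in every mouse, KO left of WT, by nervous tissue and age; each point is 1 array and lines are group means (SC, spinal cord; MB, midbrain; CB, cerebellum). KO points of Opalin lie below WT points in all 6 pairs, whereas those of Enpp6 lie below WT in every tissue at 6 months, and at 3 months below in midbrain, above in cerebellum and among them in spinal cord.

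The other 10 sheath genes were not called in a nervous tissue. Ermn, a cytoskeletal protein of the outer loops, lay below WT in all KO mice in 4 of 6 comparisons, with 9.99, 10.08 and 10.11 in KO spinal cord at 6 months against 10.21, 10.29 and 10.41 in WT (-0.25, limma adjusted p = 1.00) and with -0.31 in midbrain and in cerebellum at 6 months. Cnp, the cyclic nucleotide phosphodiesterase that keeps cytoplasmic channels open in myelin, lay below WT in 4 of 6, with differences of -0.19 to 0.01. Mbp, the major protein that holds the cytoplasmic faces together, differed by -0.08 to 0.12, and Mal by 0.04 to 0.14. For each of these 2 genes all KO mice lay above all WT mice in 2 of 6 comparisons, and below in 0.

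Mobp differed by -0.09 to 0.29, the tetraspanin Tspan2 by 0.02 to 0.16 and the tight junction protein Cldn11 by -0.20 to 0.14. All KO mice lay above all WT mice in 2 of 6 comparisons for Mobp and in 2 for Tspan2, and below in 0 for both. Mog, on the outer surface of the sheath, and Mag, at the contact with the axon, each crossed zero, with -0.28 to 0.28 for Mog and -0.22 to 0.13 for Mag. Gjb1 ran between -0.36 in midbrain at 6 months and 0.43 in cerebellum at 3 months (adjusted p = 0.671 and 0.121), with no overlap in either.

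Of the 5 genes of myelin lipid and acetate metabolism, Aspa alone was called in a nervous tissue, and once. In cerebellum at 6 months it read 6.95, 6.98 and 7.18 in KO, against 7.34, 7.60 and 7.61 in WT, 1.39-fold lower (-0.47 ± 0.10 SE, adjusted p = 0.0277). The call was lost without KO mice 122972 or 122973 or WT mice 1 or 2 (adjusted p up to 0.306), and was not made with cerebellum fitted alone (adjusted p = 0.220). Aspa also lay below WT in all KO mice in spinal cord and midbrain at both ages, with differences of -0.32 to -0.29 and adjusted p of 0.335 to 0.825.

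Ugt8a, which makes galactosylceramide, read 9.65, 9.74 and 9.82 in KO midbrain at 6 months, against 10.11, 10.11 and 10.18 in WT (-0.40 ± 0.14 SE, adjusted p = 0.718). It was apart in all 3 nervous tissues at 6 months, and overlapped in all 3 at 3 months. Fa2h, which hydroxylates the fatty acids of these lipids, showed the same pattern of overlap, with -0.37 in midbrain at 6 months (adjusted p = 0.410). Gal3st1 differed by -0.24 to -0.02 and Galc by -0.11 to 0.03. In a fixed list of 30 measured sphingolipid and galactolipid genes, the alkaline ceramidase Acer2 was the only call in the nervous tissues, higher in KO by 0.93 in spinal cord and 0.90 in cerebellum at 3 months (adjusted p = 0.00417 and 0.00582).

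Of the 6 other genes of mature oligodendrocytes, Hapln2 alone was called in a nervous tissue, in 1 comparison. Ppp1r14a, an inhibitor of myosin phosphatase, read 6.16, 6.16 and 6.33 in KO cerebellum at 6 months, against 6.94, 6.98 and 7.13 in WT (-0.80 ± 0.19 SE, adjusted p = 0.0645). It lay below WT in all KO mice in 5 of 6 comparisons, with -0.57 in spinal cord and -0.55 in midbrain at 6 months (adjusted p = 0.688 and 0.671). Its smaller differences at 3 months ran from -0.39 to -0.22. With each tissue fitted alone it was called in cerebellum and midbrain at 6 months (adjusted p = 0.00288 and 0.0144).

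Car2, the cytosolic carbonic anhydrase of the sheath, read 11.65, 11.65 and 11.79 in KO spinal cord at 6 months, against 12.04, 12.04 and 12.14 in WT (-0.37 ± 0.08 SE, adjusted p = 0.0525). It too was apart in 5 of 6 comparisons, with differences of -0.37 to -0.22, and was called in spinal cord and cerebellum at 6 months without dim probe sets (adjusted p = 0.0284 and 0.0392). Gpr37, a receptor of maturing oligodendrocytes whose gene lies on chromosome 6 as Tia1 does, was apart in 4 of 6, with -0.32 in cerebellum at 6 months (adjusted p = 0.435). Qdpr differed by -0.05 to 0.09 and the small heat shock protein Cryab by 0.08 to 0.29.

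Hapln2, which links hyaluronan to proteoglycans at nodes of Ranvier, read 5.84, 5.99 and 6.17 in KO cerebellum at 3 months, against 4.85, 5.42 and 5.63 in WT, 1.62-fold higher (0.70 ± 0.17 SE, adjusted p = 0.0390). The lowest value was that of WT mouse 1, and the call was lost in 4 of 6 fits that left out a mouse, WT mouse 1 and each of the 3 KO mice (adjusted p up to 0.483). A less bright probe set of Hapln2 differed there by 0.30 (adjusted p = 0.640), and with cerebellum fitted alone the call was not made (adjusted p = 0.0922). In spinal cord and midbrain at 3 months KO mice were also above WT, by 0.25 and 0.32, and at 6 months the groups overlapped.

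A value for each mouse was added after seeing the data, to use the 12 mice as the units. It is the mean of the spinal cord, midbrain and cerebellum samples matched by their label number, which were taken as 1 mouse. At 3 months 1 member was higher and 5 were lower in KO mice, against 0.764% and 0.764% of all probe sets. At 6 months 0 were higher and 9 were lower, against 0.344% and 0.324%. The median difference of the members was 0.01 at 3 months and -0.08 at 6 months, with 0.00 over all probe sets at both ages.

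At 6 months Ppp1r14a averaged 7.36, 7.50 and 7.34 in KO mice, against 8.09, 8.03 and 7.999 in WT mice, 1.56-fold lower (-0.64 ± 0.06 SE, limma adjusted p = 5.37e-05). Opalin averaged 7.01, 6.94 and 6.71 in KO, against 7.62, 7.42 and 7.38 in WT (-0.59, adjusted p = 0.00227), and Enpp6 6.24, 6.22 and 6.35 in KO, against 6.85, 6.88 and 6.67 in WT (-0.53, adjusted p = 0.000572). None of these groups overlapped. Aspa fell by 0.36 (adjusted p = 0.00610) and Car2 by 0.34 (adjusted p = 0.00366), and these 5 calls held without any 1 of the 6 mice.

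The remaining 4 calls at 6 months were weaker. Ugt8a fell by 0.33, Ermn by 0.29, Fa2h by 0.26 and Gpr37 by 0.26 (adjusted p = 0.0404, 0.0290, 0.0463 and 0.0396). Leaving out any mouse ended the calls of Ugt8a, Fa2h and Gpr37, and leaving out any mouse but KO mouse 122973 ended that of Ermn, with adjusted p up to 0.184 among the 4.

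At 3 months Opalin averaged 7.60, 7.55 and 7.58 in KO mice, against 8.11, 8.04 and 8.18 in WT mice (-0.53, adjusted p = 0.00435). Nkx2-2 averaged 5.27, 5.11 and 5.04 in KO, against 5.53, 5.65 and 5.59 in WT (-0.45, adjusted p = 0.0105). Hapln2 averaged 7.00, 7.11 and 7.03 in KO, against 6.49, 6.67 and 6.69 in WT (0.42, adjusted p = 0.00608). All 3 were apart between genotypes. The calls of Opalin and Hapln2 held without any 1 mouse, and that of Nkx2-2 was lost without KO mouse 122973 or WT mouse 2 (adjusted p up to 0.0534).

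Ppp1r14a fell by 0.28, Car2 by 0.24 and Aspa by 0.24 at 3 months (adjusted p = 0.0247, 0.0256 and 0.0389). Each of these 3 calls was lost in 5 of 6 fits that left out a mouse (adjusted p up to 0.154): Car2 and Aspa were called only without WT mouse 1, and Ppp1r14a only without WT mouse 2.

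The difference between ages was tested as the KO minus WT difference at 6 months minus that at 3 months. Within each nervous tissue 0 members were called, against 0.0533% of all probe sets in spinal cord, 0.0444% in midbrain and 0.0577% in cerebellum. An unadjusted p under 0.05 was found for 4, 2 and 5 members, against 3.85%, 4.78% and 4.85% of all probe sets. On the mouse means 1 member was called, Enpp6 (-0.55 ± 0.08 SE, adjusted p = 0.0273), against 0.0955% of all probe sets. The Enpp6 call was lost in 9 of 12 fits that left out a mouse (adjusted p up to 0.0942; kept only without WT mouse 1 at 3 months, or KO mouse 122973 or WT mouse 3 at 6 months), and its dimmer probe sets gave -0.06 and -0.20 (adjusted p = 0.885 and 0.649). For Opalin the same difference was -0.06 (adjusted p = 0.913).

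Averaged over the 30 members, KO mice were below WT mice without overlap in every nervous tissue at 6 months. The mean level ranged over 8.86 to 8.94 in KO spinal cord and 9.02 to 9.12 in WT, 8.24 to 8.29 in KO midbrain and 8.38 to 8.43 in WT, and 7.18 to 7.29 in KO cerebellum and 7.33 to 7.36 in WT. Without Opalin the groups stayed apart. At 3 months the ranges overlapped in spinal cord and cerebellum and met in midbrain, with differences of -0.03, 0.05 and -0.07.

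A second list of oligodendrocyte and myelin genes, with 38 of 42 measured and none of them a member, was compared in the same way. Its only call in the nervous tissues was Ninj2, an adhesion protein encoded on the chromosome of Tia1, lower in KO by 1.07 to 2.48 in all 6 nervous comparisons. The list's mean differed by -0.13, -0.11 and -0.10 in spinal cord, midbrain and cerebellum at 6 months, apart in each, and by -0.09, -0.06 and 0.02 at 3 months, apart in spinal cord and midbrain. Without Ninj2 the mean differed by -0.07 in each nervous tissue at 6 months, overlapping in spinal cord and cerebellum, and by -0.04, -0.02 and 0.05 in spinal cord, midbrain and cerebellum at 3 months.

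Other cell types moved with some of these values. Over 14 of 16 microglial genes the mean level was 6.93 to 7.09 in KO and 7.17 to 7.25 in WT spinal cord at 6 months, and 6.43 to 6.53 in KO and 6.65 to 6.72 in WT midbrain at 3 months, with all 14 genes negative in both comparisons. It was also apart in spinal cord at 3 months (6.94 to 7.00 in KO and 7.04 to 7.08 in WT) and in midbrain at 6 months (6.52 to 6.67 in KO and 6.68 to 6.77 in WT), and overlapped in cerebellum, and 0 microglial genes were called in the nervous tissues. Neuronal genes overlapped, with 9.79 to 9.82 in KO and 9.77 to 9.85 in WT spinal cord at 6 months, and 0 of 20 were called in the nervous tissues. Of 15 astrocyte genes 0 were called in the nervous tissues, but their mean was apart in 5 of 6 comparisons. It ranged over 9.52 to 9.57 in KO and 9.41 to 9.48 in WT spinal cord at 3 months, and over 9.48 to 9.50 in KO and 9.51 to 9.58 in WT spinal cord at 6 months. It was above WT in KO cerebellum at both ages, with 9.14 to 9.19 in KO and 9.06 to 9.09 in WT at 6 months, and in KO midbrain at 6 months, with 9.15 to 9.20 in KO and 9.10 to 9.12 in WT. The part of these cell types in the members' differences was not tested.

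Of 12 genes of Schwann cells and peripheral myelin, the early growth response factor Egr2 was called in spinal cord at 3 months (1.07 higher in KO, adjusted p = 0.00283). Their mean there ranged over 6.09 to 6.99 in KO and 6.22 to 6.84 in WT, and at 6 months over 6.39 to 6.79 in KO and 6.12 to 6.40 in WT, so spinal cord samples varied in peripheral nerve genes within a genotype. In WT cerebellum the same mean was lower, at 4.33 to 4.40 at 3 months and 4.30 to 4.42 at 6 months. The part of peripheral nerve in the members' differences between tissues was not tested. Among 11 endothelial genes, Cldn5 and Ly6c1 were higher by 0.61 each in KO midbrain at 6 months (adjusted p = 0.0209 and 0.0355). The mean of the endothelial list there ranged over 6.50 to 6.57 in KO and 6.22 to 6.35 in WT. It was also above WT without overlap in KO cerebellum at both ages, and overlapped in spinal cord at both ages and in midbrain at 3 months. The part of endothelial cells in the members' differences was not tested. Of the hepatocyte genes, Alb was 2.25 higher in KO spinal cord at 6 months (adjusted p = 0.00317) and Tdo2 was 0.58 and 1.00 higher in KO cerebellum at 3 and 6 months (adjusted p = 0.0237 and 9.22e-06).

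**Figure D4:**
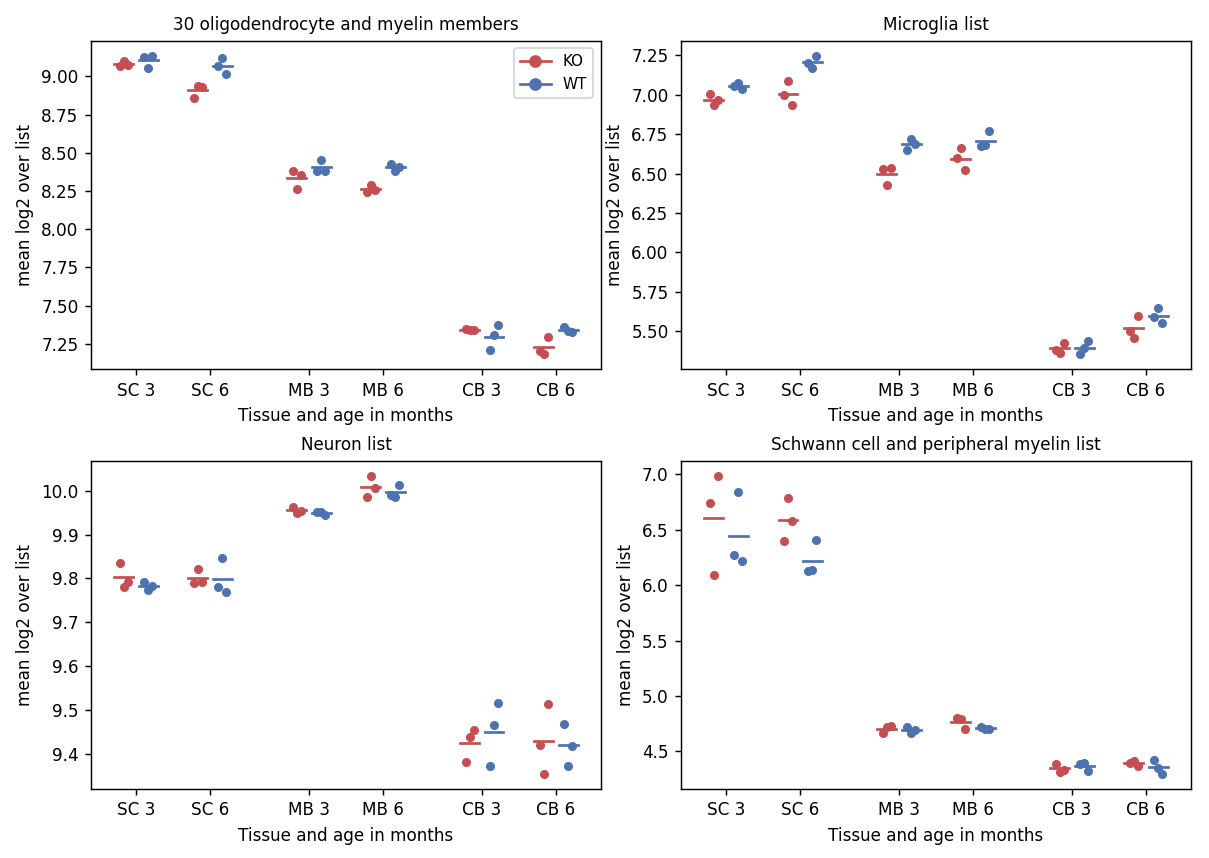
Mean log2 level of the 30 members, of microglial, neuronal and Schwann cell genes in every mouse, KO left of WT, by nervous tissue and age; each point is 1 array and lines are group means (SC, spinal cord; MB, midbrain; CB, cerebellum). The members and the microglial genes are both lower in KO spinal cord at 6 months, while the neuronal genes overlap.

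Between 6 and 3 months Opalin was the member that changed most often within a genotype. In spinal cord it was lower at 6 months than at 3 months by 0.79 in KO mice (adjusted p = 0.000316) and by 0.79 in WT mice (adjusted p = 0.000343). It was 0.68 lower in WT midbrain (adjusted p = 0.00294; lost without WT mouse 1 at 3 months or WT mouse 2 at 6 months) and 0.75 lower in KO cerebellum (adjusted p = 0.00420). The differences of -0.55 in KO midbrain and -0.44 in WT cerebellum were not called.

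In spinal cord 1 member was called in KO mice and 1 in WT mice (0.0910% and 0.242% of all probe sets), in midbrain 0 in KO and 1 in WT (0.00444% and 0.258%), and in cerebellum 1 in KO and 1 in WT (0.0844% and 1.13%). In KO midbrain, 2 members had an unadjusted p under 0.05, against 3.29% of all probe sets. The call in WT cerebellum was Hapln2, 0.79 higher at 6 months (adjusted p = 0.00969), which was lost without WT mouse 1 at 3 months or WT mice 1 or 2 at 6 months (adjusted p up to 0.159). This call and the KO minus WT call of Hapln2 at 3 months share 1 WT cerebellum group (4.85, 5.42 and 5.63). WT mice read 6.02 to 6.17 at 6 months, and KO mice 5.84 to 6.17 at 3 months and 6.15 to 6.46 at 6 months.

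Liver, where the members averaged 4.44 to 4.67, gave more calls than the nervous tissues. In KO minus WT, 7 of 30 members were called at 3 months and 8 at 6 months, against 9.44% and 11.5% of all probe sets. Expression of Cryab was 4.07, 4.36 and 4.66 in KO liver at 6 months, against 5.29, 5.37 and 5.47 in WT (-1.02 ± 0.19 SE, adjusted p = 0.000319). Ppp1r14a was lower at both ages, by 1.09 at 3 months and 0.61 at 6 months (adjusted p = 0.000164 and 0.0306), and the call at 6 months was lost in 5 of 6 fits that left out a mouse (kept only without KO mouse 122972, adjusted p up to 0.210).

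For the difference between ages in liver 7 members were called, against 7.14% of all probe sets, and between 6 and 3 months 6 members in KO and 12 in WT liver, against 10.9% and 10.7%. The median SD within a group was 0.115 to 0.133 in nervous tissues and 0.218 in liver, and all groups shared 1 estimate of the spread. With liver fitted alone, 0 members were called between genotypes, 0 for the difference between ages and 1 between 6 and 3 months. With the nervous tissues fitted without liver, 18 calls were made between genotypes across the 6 nervous comparisons in place of 6, where 0.109% to 0.631% of all probe sets were lower and 0.155% to 1.19% higher. Opalin was then called lower in 6 of 6, Car2 and Ppp1r14a in each tissue at 6 months, Enpp6 in spinal cord and midbrain at 6 months, Ugt8a in midbrain at 6 months, and Aspa and Gpr37 in cerebellum at 6 months, while Hapln2 was called higher in cerebellum at 3 months.

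Bases before the start were searched for the core of the MYRF motif (CTGGCAC or CTGGTAC), the SOX motif (ACAAAG or ACAATG) and the OLIG2 E-box (CAGCTG or CATATG), on both strands, since these factors act on the lineage. RefSeq gave 32 windows of 300 bases, 250 before and 50 after a start, for 24 of the 33 listed genes, and several windows of 1 gene overlap. The MYRF core was found in 18.8% of them and in 7.1% of all 32851 windows, the SOX motif in 43.8% and 28.6%, and the E-box in 18.8% and 19.8%. The 5 genes with a MYRF core were Cnp, Hapln2, Mag, Mog and Opalin, in which it lies 36 bases after the start, and among these Opalin and Hapln2 were called between genotypes in a nervous tissue while Cnp, Mag and Mog were not. No motif was found in any window of Cldn11, Cspg4, Galc, Gpr37, Mal, Nkx2-2, Nkx6-2, Pdgfra, Ppp1r14a, Qdpr and Ugt8a. The stretches of 60 bases below are given 5′ to 3′ on GRCm38.p6, with the MYRF core in capitals for the first 4, where Mog and Hapln2 carry it on the other strand, and the E-box in capitals for Aspa. They lie at chr7:30914899-30914958 (minus) for Mag, chr11:100574831-100574890 (plus) for Cnp, chr17:37023449-37023508 (minus) for Mog, chr3:88027623-88027682 (minus) for Hapln2 and chr11:73324715-73324774 (minus) for Aspa.
Mag: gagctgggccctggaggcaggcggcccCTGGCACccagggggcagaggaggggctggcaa
Cnp: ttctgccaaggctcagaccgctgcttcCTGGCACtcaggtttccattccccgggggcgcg
Mog: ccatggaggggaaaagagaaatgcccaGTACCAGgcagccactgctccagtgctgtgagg
Hapln2: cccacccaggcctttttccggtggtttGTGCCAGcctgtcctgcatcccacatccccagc
Aspa: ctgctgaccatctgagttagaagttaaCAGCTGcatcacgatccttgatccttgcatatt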

How the data were processed

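Total RNA of 48 tissue samples from 12 mice was amplified with a 3′ kit and hybridized to Affymetrix GeneChip arrays of the mouse genome, 1 array for each sample. The authors corrected the background, quantile normalized and summarized the arrays by RMA in R 2.14.0, and deposited log2 values for 45141 probe sets; these values were used unchanged, and no depth applies to arrays, whose number limits the precision. Replicates are mice, 3 in a group. In the main fit the p-values rest on 1 spread between mice within a group, pooled over all 16 groups and thus over the 4 tissues, liver included.

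With R 4.3.3 and limma 3.58.1, a mean for each of 16 groups was fitted over 45037 probe sets (104 controls left out), followed by eBayes (prior df 4.97, residual df 32) and Benjamini-Hochberg adjustment over all probe sets in each contrast. Probe sets were named by the platform annotation. The fit was run on simulated data in which each probe set had the same spread in all tissues. That run therefore cannot test the pooling of the spread over tissues. Values per mouse are given for members called in a nervous tissue and for the 2 members of each role with the largest mean difference. Members and lists were chosen with earlier results of these data known, so no p is given over a list. Same-numbered KO and WT labels at both ages were taken as separate mice. Within a genotype and age, tissues with the same number were assumed to come from 1 mouse. Tissues of 1 mouse deviated together only weakly (median residual correlation 0.0511 over 72 pairs, against -0.0219 over 144 pairs of different mice). Alternatives changed the samples fitted, the filter, the prior, the normalization, the threshold, the probe sets and the mice.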

Additional observations from a re-analysis of the deposited data

Results flagged for a closer look

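The KO minus WT difference changed between ages in liver, by a test of the change itself, for 7 members: Enpp6 by -0.96, Mbp by 0.70, Mobp by -0.75, Opalin by 0.79, Fa2h by -0.64, Gal3st1 by -0.78 and Cryab by -1.48 (6 minus 3 months, limma adjusted p = 0.00463, 0.0443, 0.0155, 0.00334, 0.00926, 0.00806 and 0.000478). Of these, Mbp read 2.36 to 3.58 in liver, Mobp 2.58 to 4.03 and Opalin 3.06 to 3.82, near background beside array medians of 3.95 to 4.32. None of the 7 members was called with liver fitted alone. Leaving out 1 mouse ended the call of Mbp in 8 of 12 fits, of Mobp in 5 and of Fa2h in 1. On the mean of the nervous tissues the same change was -0.55 for Enpp6 (adjusted p = 0.0273), called in 1 of its 3 probe sets.

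For 5 members all KO mice lay on one side of all WT mice in some nervous tissues or ages and on the other side in others. The difference between tissues was not tested. In the fit over all tissues, the test between ages within a nervous tissue called none of them. Without liver in the fit, that test called Enpp6 in spinal cord (-0.69, limma adjusted p = 0.0263). Olig2 differed by 0.26 in spinal cord and by 0.26 in cerebellum at 3 months, and by -0.41 in spinal cord at 6 months. Enpp6 differed by 0.28 in cerebellum at 3 months, and by -0.25 in midbrain at 3 months, -0.66 in spinal cord, -0.66 in midbrain and -0.28 in cerebellum at 6 months. Mog differed by 0.28 in spinal cord at 3 months and -0.27 in midbrain at 6 months. Mag differed by 0.13 in cerebellum at 3 months, and by -0.22 in spinal cord and -0.15 in midbrain at 6 months. Gjb1 differed by 0.43 in cerebellum at 3 months and -0.36 in midbrain at 6 months.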

How the results depend on the processing

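The tissue order of the members kept its counts within 1.5 times in every alternative tried. The 6 nervous calls between genotypes became 18 without liver in the fit, 10 without dim probe sets, 10 with a trended and robust prior and 1 at adjusted p under 0.01, and 1 to 9 with 1 mouse left out, with 1 without KO mouse 122970 and 2 without KO mouse 122972 at 3 months, and 3 without WT mouse 1 or 2 at 6 months. The count was also 6 with each tissue alone and with gene means, but not over the same genes: with each tissue alone, Opalin in spinal cord at both ages, Aspa and Hapln2 gave way to Enpp6 and Ppp1r14a with 2 calls each, and with gene means the 4 Opalin calls gave way to Car2 with 2 and Enpp6 and Nkx2-2 with 1 each. The 15 liver calls became 0 with liver alone and 8 at the stricter threshold. For the change of the genotype difference between ages, the 0 nervous calls became 1 without liver, Enpp6 in spinal cord. The 7 liver calls became 0 with liver alone and 4 with gene means over all probe sets. Between ages, the 5 nervous calls became 8 with each tissue alone, 12 without liver and 3 to 6 with 1 mouse left out, 3 without WT mouse 1 at 3 months or WT mouse 2 at 6 months, and the 18 liver calls became 1 with liver alone. On the mouse means the 6 calls at 3 months became 2 to 5 with 1 mouse left out (2 to 3 without any mouse but WT mouse 1) and the 9 at 6 months 5 to 6 (5 without KO mouse 122972 or any WT mouse), and the 1 call between ages became 2 with the trended prior and 0 to 1 with 1 mouse left out. The Mbp difference between ages in WT liver turned to 0.06 with gene means. With the median over members in place of the mean, the KO minus WT level moved to -0.11, -0.26, -0.17 and -0.23 in spinal cord at 3 and 6 months and midbrain at 3 and 6 months, to -0.23 in cerebellum at 6 months, and turned to -0.02 in cerebellum at 3 months (0.00 to 0.09 as a mean with 1 mouse left out). The cause of these changes was not tested.

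With the mouse as a replicate block (consensus correlation 0.0303) the counts stayed at 6, 15, 0, 7, 5 and 18, and no call of a named gene changed. The label number as a block across ages (consensus correlation -0.00180) left 5 and 18 calls between ages. With 3 mice a group, a difference that missed the threshold is not shown to be absent.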
